A study of Mus musculus with 7 samples.

Results

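Ras-MAPK feedback genes were followed through papillomas of control mice (CTR) and of mice with inducible *Nanog* (TG). Members were chosen by their known role: the MAP kinase phosphatase genes *Dusp4*, *Dusp5* and *Dusp6*, the Sprouty genes *Spry1*, *Spry2* and *Spry4*, the Spred genes *Spred1* and *Spred2*, and the PEA3-type ETS factor genes *Etv4* and *Etv5*. All 10 were found by symbol in each of the 7 papillomas, among 23284 gene symbols in all. The comparison asks whether the output of the Ras pathway, as these genes report it, differed when *Nanog* was switched on in a tumor type that a Ras mutation usually starts. CTR mice (n = 4) carried the *tetO-Nanog* allele at *Col1a1* without the transactivator. TG mice (n = 3) carried the same allele plus *K5-rtTA*, whose keratin 5 promoter drives the transactivator in basal keratinocytes and not in stroma. Mice of both groups were adult, on a C57Bl/6 background, and drank doxycycline (DOX) at 2 mg/ml throughout the DMBA/TPA protocol, in which the mutagen DMBA initiates tumors and repeated TPA promotes them. Each library came from a different mouse, and papillomas were taken either when the protocol ended or at the humane endpoint.

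In the Ras-MAPK pathway, receptors such as EGFR load Ras with GTP, and Ras then drives the kinases RAF, MEK and ERK in turn. ERK activity raises transcription of genes that switch the pathway off again. DUSP6 and DUSP5 remove the activating phosphates from ERK in the cytoplasm and in the nucleus, DUSP4 is a nuclear phosphatase that also acts on other MAP kinases, and Sprouty and Spred proteins act upstream at the level of Ras and RAF. ETV4 and ETV5 are transcription factors induced downstream of FGF and ERK signaling. For this reason the messages of these genes are widely read as a record of recent ERK activity, although message levels do not measure phosphorylated ERK. At the protein level, the paper reports more phosphorylated ERK and AKT in its *Nanog*-driven tumors, which RNA libraries cannot test.

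The authors deposited FPKM, a read density per kilobase of transcript that is also relative to the size of the library. Reads implied by the width of the Cufflinks intervals lay between 10.1 M and 15.7 M per library. For the members the implied number lay between 21 and 3554 reads, and 68 of 70 values came within 0.15 of a whole read. The basal keratinocyte genes *Krt5* and *Krt14* and the epithelial factor gene *Trp63* were detected in every papilloma, at 30.9 FPKM or more. *Nanog* was 2.70, 2.84, 12.7 and 3.34 FPKM in CTR 1 to CTR 4 and 36.9, 57.4 and 66.9 FPKM in TG 1 to TG 3, so every TG library was above every CTR library (exact permutation test, two-sided p = 0.0286, the smallest that 35 splits allow). Its difference was 3.45 on the log2 scale (adjusted p = 0.400 from limma), and without CTR 3, the highest CTR library, it was 3.93 (adjusted p = 0.00364 from limma). TG 3 stood apart from the other papillomas. Its median FPKM was 1.14, against 0.539 to 0.673 elsewhere, and it was the highest papilloma for 41.1% of the 12299 genes tested. CTR 2 was the lowest papilloma for 30.2% of them. The difference of a member between groups is therefore also given without TG 3 or CTR 2 where that turned its sign or moved it by more than 1.5 times.

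No feedback gene was called different between TG and CTR papillomas. Of the 10 members, 9 averaged 0.5 FPKM or more across the papillomas and entered the test. limma, a linear model fitted across all tested genes on log2(FPKM + 0.5), called 0 of 9 at a threshold of 0.05 after adjustment, and adjusted p-values ran from 0.826 to 0.993. Before adjustment it also gave 0 of 9 under 0.05, and the exact permutation test gave 0 of 10. Over all tested genes, 0% were called higher in TG and 0% lower after adjustment, and 4.86% were higher and 1.96% lower at an unadjusted p under 0.05. The paper used another test, that of Cufflinks, and lists genes higher in TG papillomas, *Nanog* among them. No member is in that list. For 0 of 10 members did the groups separate, while 4.93% of tested genes had every TG papilloma above every CTR papilloma and 2.23% had every one below. The fitted difference, TG minus CTR, was positive for 8 of the 9 tested members, against 60.0% of all tested genes. Its median was 0.17 on the log2 scale, against 0.06 over all tested genes, and without TG 3 the median over the members became -0.12, and without CTR 2 it became -0.0015.

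**Figure D1:**
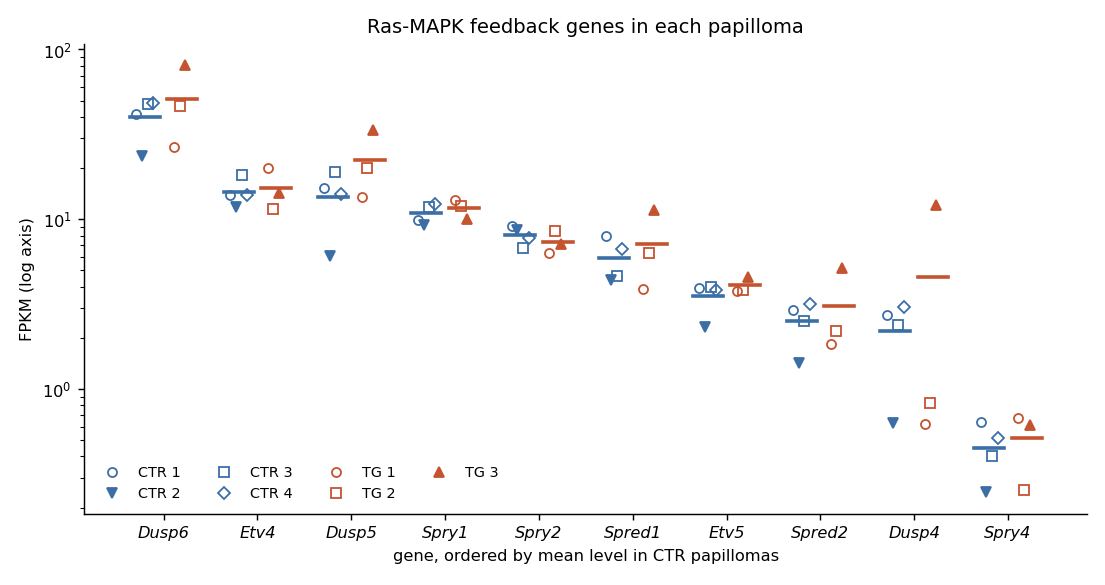
FPKM of the 10 feedback genes in each papilloma (log axis), with genes ordered by mean level in CTR. Horizontal bars are group means (CTR n = 4, TG n = 3), filled triangles mark CTR 2 and TG 3, and *Dusp6* is highest in every papilloma while the groups overlap for every gene.

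*Dusp6* was the most abundant member, and its level per transcript length in CTR papillomas, 40.3 ± 11.6 FPKM (SD, n = 4), was above that of every other member. The CTR ranges of neighbors in this order were apart only between *Dusp6* and *Etv4*, between *Spry1* and *Spry2* and between *Spred1* and *Etv5*. The order after *Dusp6* was *Etv4* (14.5 ± 2.71), *Dusp5* (13.6 ± 5.43), *Spry1* (10.8 ± 1.45), *Spry2* (8.09 ± 1.02), *Spred1* (5.90 ± 1.67), *Etv5* (3.51 ± 0.806), *Spred2* (2.51 ± 0.770), *Dusp4* (2.19 ± 1.08) and *Spry4* (0.451 ± 0.167), each a mean FPKM over 4 CTR papillomas with its SD. The other neighbors overlapped in range, and *Etv4* exceeded *Dusp5* in 2 of 7 papillomas.

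Among the MAP kinase phosphatases, *Dusp6* (chr10:99263231-99267489 on GRCm38) was 41.5, 23.5, 47.9 and 48.1 FPKM in CTR 1 to CTR 4 and 26.7, 46.6 and 80.6 FPKM in TG 1 to TG 3. TG papillomas held a high, a middle and a low value, and the lowest of all was CTR 2. The difference was 0.26 on the log2 scale (SE 0.38, 95% interval -0.61 to 1.13, adjusted p = 0.948 from limma). It became -0.13 without TG 3 and 0.02 without CTR 2.

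*Dusp5* (chr19:53529318-53541322), the nuclear ERK phosphatase, had the largest difference among the members. Its values were 15.3, 6.05, 18.9 and 14.0 FPKM in CTR 1 to CTR 4 and 13.6, 20.0 and 33.3 FPKM in TG 1 to TG 3. TG 2 and TG 3 were above all CTR papillomas, but TG 1 was below 3 of the 4. The difference was 0.71 (SE 0.40, 95% interval -0.21 to 1.63, adjusted p = 0.826 from limma), it was 0.38 without TG 3 and 0.38 without CTR 2, and it was 1.01 without TG 1, where the unadjusted p was 0.0474.

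*Dusp4* (chr8:34807610-34819894) varied most. It was 2.73, 0.634, 2.36 and 3.05 FPKM in CTR 1 to CTR 4 and 0.622, 0.822 and 12.2 FPKM in TG 1 to TG 3, a 19.6-fold range. TG 3 was the highest papilloma, while TG 1 and TG 2 lay with CTR 2 at the bottom. The difference was 0.11 (SE 0.80, adjusted p = 0.993 from limma), with a 95% interval from -1.72 to 1.93 that leaves room for a large change in either direction. Without TG 3 it was -1.02, at an unadjusted p of 0.0442 and an adjusted p of 0.491 from limma, and without CTR 2 it was -0.27.

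The Spred proteins, which bind Ras pathway components at the membrane and hold back RAF, were measured through 2 genes. *Spred1* (chr2:117121450-117179336) was 7.91, 4.40, 4.66 and 6.64 FPKM in CTR 1 to CTR 4 and 3.86, 6.29 and 11.4 FPKM in TG 1 to TG 3. TG papillomas again held both the highest and the lowest value. The difference was 0.18 (SE 0.34, 95% interval -0.60 to 0.95, adjusted p = 0.965 from limma), and it was -0.20 without TG 3 and 0.06 without CTR 2.

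*Spred2* (chr11:19924442-20022597) was 2.91, 1.42, 2.52 and 3.17 FPKM in CTR 1 to CTR 4 and 1.83, 2.20 and 5.16 FPKM in TG 1 to TG 3. TG 3 was the highest, CTR 2 the lowest and TG 1 the next lowest. The difference was 0.17 (SE 0.35, 95% interval -0.62 to 0.96, adjusted p = 0.966 from limma), and it turned to -0.22 without TG 3 and to -0.03 without CTR 2.

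Of the Sprouty genes, *Spry1* and *Spry2* were the steadiest members. *Spry1* (chr3:37639950-37644599) was 9.92, 9.25, 11.8 and 12.2 FPKM in CTR 1 to CTR 4 and 13.1, 11.9 and 10.02 FPKM in TG 1 to TG 3. Here TG 1 was the highest papilloma and TG 3 the third lowest. The difference was 0.11 (SE 0.17, 95% interval -0.28 to 0.49, adjusted p = 0.953 from limma), and it was 0.21 without TG 3 and 0.04 without CTR 2.

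*Spry2* (chr14:105891947-105896819) was 9.12, 8.65, 6.80 and 7.78 FPKM in CTR 1 to CTR 4 and 6.31, 8.52 and 7.15 FPKM in TG 1 to TG 3. It was the only tested member whose difference was negative, at -0.14 (SE 0.17, 95% interval -0.53 to 0.26, adjusted p = 0.932 from limma). For *Spry1* and *Spry2* the intervals together spanned -0.53 to 0.49 on the log2 scale.

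*Spry4* (chr18:38586265-38601268) was too low to enter the fit. It was 0.640, 0.245, 0.405 and 0.514 FPKM in CTR 1 to CTR 4 and 0.678, 0.254 and 0.613 FPKM in TG 1 to TG 3. The groups overlapped almost fully (exact permutation test, two-sided p = 0.743), and with 21 to 81 implied reads per library a small difference was not detectable at this depth. The difference of 0.08 turned to -0.03 without CTR 2.

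The ETS factor genes were also close between groups. *Etv4* (chr11:101769742-101785310) was 13.9, 11.8, 18.3 and 13.9 FPKM in CTR 1 to CTR 4 and 20.0, 11.5 and 14.3 FPKM in TG 1 to TG 3. TG 1 was the highest papilloma and TG 2 the lowest. The difference was 0.06 (SE 0.22, 95% interval -0.45 to 0.56, adjusted p = 0.986 from limma), and it was 0.09 without TG 3. Its sign turned without CTR 2 (-0.03), without TG 1 (-0.15) and when papillomas were scaled to a common upper quartile (-0.0055) or quantile-normalized (-0.018).

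*Etv5* (chr16:22381313-22439570) was 3.93, 2.31, 4.00 and 3.82 FPKM in CTR 1 to CTR 4 and 3.79, 3.85 and 4.59 FPKM in TG 1 to TG 3. Apart from the low CTR 2 and the higher TG 3, the papillomas lay within 3.79 to 4.00 FPKM. The difference was 0.21 (SE 0.21, 95% interval -0.27 to 0.69, adjusted p = 0.907 from limma), and it was 0.13 without TG 3 and 0.05 without CTR 2.

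**Figure D2:**
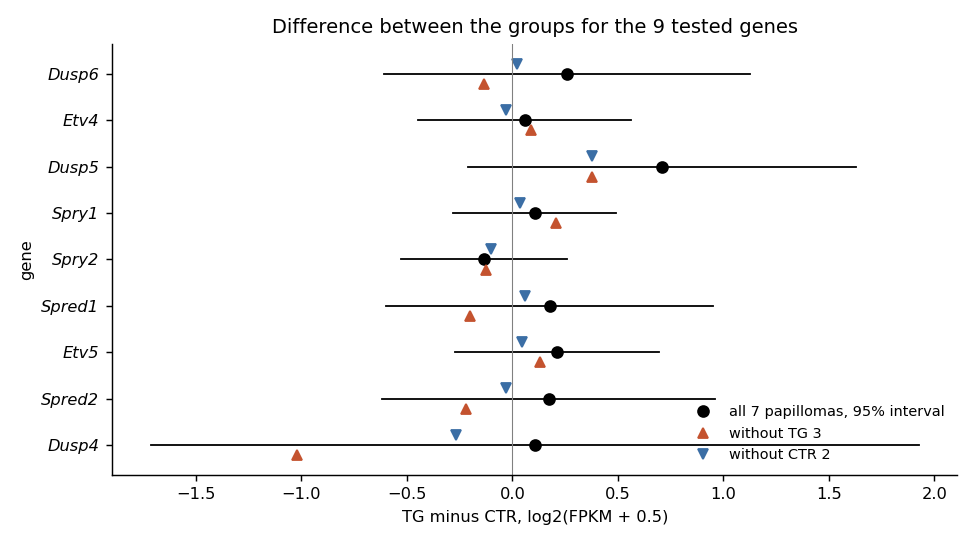
Difference in log2(FPKM + 0.5), TG minus CTR, for the 9 tested feedback genes, with the 95% interval from limma (black) and the value without TG 3 or without CTR 2 (triangles). Every interval spans 0, and the *Dusp4* value moves from 0.11 to -1.02 when TG 3 is left out.

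The members differed in how much they varied between papillomas. The SD of log2(FPKM + 0.5) over the 7 papillomas was 1.25 for *Dusp4*, 0.72 for *Dusp5*, 0.59 for *Dusp6*, 0.50 for *Spred1* and 0.50 for *Spred2*, and these values stood at percentiles 98.3, 92.1, 87.3, 82.1 and 81.9 among all tested genes. By contrast it was 0.18 for *Spry1* and 0.19 for *Spry2*, at percentiles 12.6 and 14.2. *Etv4* (0.29) and *Etv5* (0.27) lay near the median over all tested genes, 0.31. The phosphatase and Spred genes were the variable members.

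**Figure D3:**
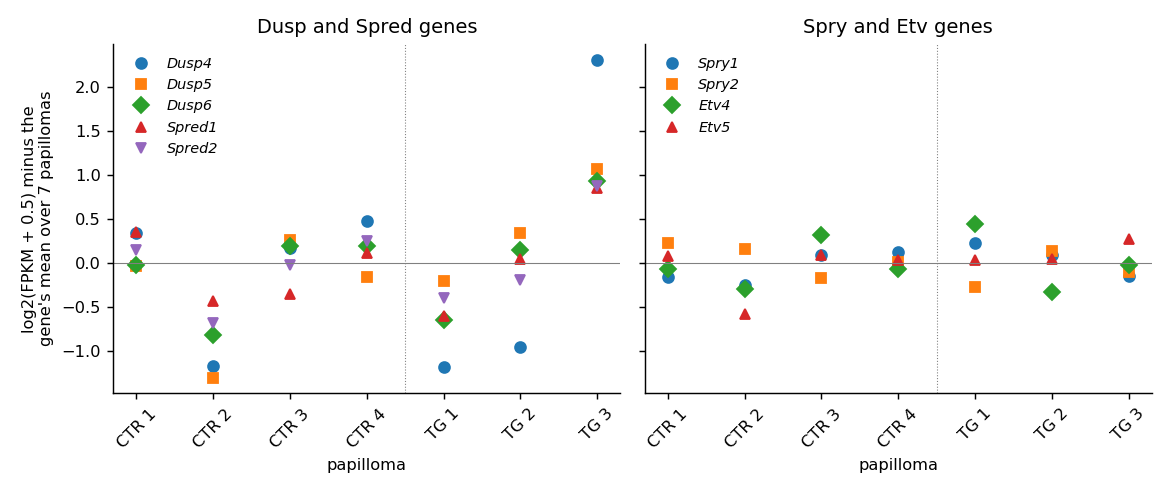
Level of each tested feedback gene in each papilloma as log2(FPKM + 0.5) minus the mean of that gene over the 7 papillomas, with *Dusp* and *Spred* genes on the left and *Spry* and *Etv* genes on the right. *Dusp* and *Spred* genes are low in CTR 2 and TG 1 and high in TG 3, and *Spry1* and *Spry2* stay within 0.27 of their means.

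TG 3 was the highest papilloma for 6 of 10 members and CTR 2 the lowest for 6 of 10, against 41.1% and 30.2% of all tested genes. After scaling to a common upper quartile the counts were 6 and 4, against 26.9% and 16.03%. In the deposited values, relative to the CTR mean, the TG 3 level was 5.55-fold for *Dusp4*, 2.46-fold for *Dusp5*, 2.06-fold for *Spred2*, 2.00-fold for *Dusp6* and 1.93-fold for *Spred1*. It was 1.36-fold for *Spry4*, 1.31-fold for *Etv5*, 0.988-fold for *Etv4*, 0.927-fold for *Spry1* and 0.883-fold for *Spry2*. In CTR 2 the level relative to the mean of the other CTR papillomas was 0.234-fold for *Dusp4*, 0.376-fold for *Dusp5*, 0.472-fold for *Spry4*, 0.496-fold for *Spred2*, 0.514-fold for *Dusp6*, 0.590-fold for *Etv5*, 0.687-fold for *Spred1*, 0.770-fold for *Etv4*, 0.816-fold for *Spry1* and 1.10-fold for *Spry2*. Upper-quartile scaling made the TG 3 folds smaller, at 4.92 for *Dusp4*, 2.17 for *Dusp5*, 1.81 for *Spred2*, 1.76 for *Dusp6* and 1.68 for *Spred1*. The remaining TG 3 folds then ran from 0.760 (*Spry2*) to 1.19 (*Spry4*). The CTR 2 folds became larger, from 0.272 for *Dusp4* to 0.894 for *Etv4*, 0.948 for *Spry1* and 1.27 for *Spry2*.

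Markers of several other cell types, though not of all, were higher in TG 3 than in the other papillomas. Summed over 8 skeletal muscle genes the level was 620 FPKM in TG 3, against 1.86 to 3.42 in CTR papillomas and 2.90 and 5.25 in TG 1 and TG 2, and TG 3 was the highest papilloma for 8 of 8 of these genes. Summed over 8 fibroblast genes it was 692 FPKM in TG 3, against 81.5 to 137 in CTR and 102 and 94.2 in TG 1 and TG 2, and TG 3 was the highest for 7 of 8. Macrophage and dendritic genes summed to 269 FPKM in TG 3 and to between 64.0 and 114 FPKM elsewhere. T cell and endothelial sums were also highest in TG 3, at 17.7 and 32.9 FPKM, against 5.39 to 12.3 and 9.93 to 26.4 FPKM elsewhere. TG 3 was highest for 5 of 7 T cell genes and 4 of 7 endothelial genes. The T cell sum came mostly from *Thy1* (14.4 FPKM in TG 3). *Cd3d* (0.282 FPKM) and *Cd3g* (0.799 FPKM) in TG 3 lay within the range of the other papillomas. The neutrophil sum was not, at 1680 FPKM in TG 3, 3368 and 4222 FPKM in TG 1 and TG 2 and 607 to 1811 FPKM in CTR. That sum came mostly from *S100a8* (752 FPKM in TG 3) and *S100a9* (887 FPKM), which, like *Cxcr2*, were highest in TG 1 or TG 2. TG 3 was highest for 3 of 6 neutrophil genes. *Csf3r* was 17.0 FPKM in TG 3 and 0.265 to 0.750 FPKM elsewhere, and *Retnlg* was 14.0 FPKM against 0.0949 to 0.765 FPKM. *Ngp* was 0.152 FPKM in TG 3 and listed at 0 elsewhere. The adipocyte sum in TG 3 (1688 FPKM) lay within the CTR range of 1374 to 3228 FPKM, although TG 3 was highest for 5 of 6 adipocyte genes. Nearly all of this sum was *Fabp4* (1680 FPKM in TG 3). *Adipoq*, *Plin1*, *Lep*, *Cidec* and *Retn* were listed at 0 in every CTR papilloma and were 0.431 to 3.34 FPKM in TG 3. The differentiation keratin gene *Krt10* was 181 FPKM in TG 3 and 917 to 3150 FPKM elsewhere, while *Krt5*, of the basal layer, was 1783 FPKM in TG 3 and 942 to 1777 elsewhere. *Krt14*, also of the basal layer, was lowest in TG 3, at 4717 FPKM against 5494 to 10937 elsewhere, and so was the sum of 8 keratinocyte genes, at 12607 FPKM against 15374 to 25541. That sum came mostly from *Krt14* and *Krt6a* (5372 FPKM in TG 3), and *Krt6a* and *Krt1* were lowest in TG 3 as well. The other listed genes went otherwise: *Cdh1* (122 FPKM) and *Dsg3* (257 FPKM) were highest in TG 3, and *Trp63* (42.1 FPKM) lay within the range of the other papillomas. The part of these cell type differences in the levels of the feedback genes was not tested. In such bulk tissue, fewer cells of a type and less RNA per cell cannot be told apart. CTR 2 lay within the range of the other CTR papillomas for the keratinocyte sum (16744 FPKM) and the fibroblast sum (106 FPKM). It lay above that range for the neutrophil sum, 1811 FPKM against 607 to 1522, nearly all of it from *S100a8* (860 FPKM) and *S100a9* (945 FPKM). The other neutrophil genes were not raised in CTR 2. *Csf3r* (0.370 FPKM), *Cxcr2* (4.84 FPKM) and *Retnlg* (0.200 FPKM) lay within the range of the other CTR papillomas, and *Ngp* was listed at 0.

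Because several members seemed to move together, *Dusp6*, the most abundant, was compared with each of the other 9 over the 7 papillomas on the log2(FPKM + 0.5) scale, a choice made after the values had been seen. *Spred2* followed it most closely, with Pearson's r = 0.933 (exact permutation test, p = 0.00377, 0.0298 after adjustment over the 9 relations) and Spearman's rho = 0.893 (exact p = 0.0123, adjusted 0.107). For *Dusp5* r was 0.899 (exact permutation p = 0.00992, adjusted 0.0298) and rho was 0.750 (exact p = 0.0663, adjusted 0.149). For *Dusp4* r was 0.878 (exact permutation p = 0.00853, adjusted 0.0298) and rho was 0.857 (exact p = 0.0238, adjusted 0.107). *Spred1* and *Etv5* had r = 0.838 and r = 0.792 (exact permutation p = 0.0222 and 0.0375, adjusted 0.05 and 0.0675), with rho of 0.714 and 0.750 (exact p = 0.0881 and 0.0663, adjusted 0.159 and 0.149). The remaining r values were 0.26 for *Spry4*, -0.02 for *Spry1*, -0.07 for *Etv4* and -0.10 for *Spry2*, with rho of 0.107, 0.214, 0.214 and -0.286, and exact permutation p of 0.576 or more for r and of 0.556 or more for rho, adjusted to 0.864 and 0.744 or more. No rho held after adjustment. The adjustment covers neither the choice of *Dusp6* nor other pairs of members, so the p-values of r and rho are descriptive.

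Without CTR 2 and TG 1, the papillomas farthest from the *Dusp6* median on that log2 scale, r was 0.868 for *Spred2*, 0.902 for *Dusp5*, 0.837 for *Dusp4*, 0.699 for *Spred1* and 0.933 for *Etv5*. Leaving out TG 3 alone gave 0.864, 0.814, 0.739, 0.662 and 0.744 in the same order of genes. Relations of this size were not rare in these libraries: 1.42% of tested genes had an r with *Dusp6* at least as high as that of *Spred2*, 3.79% as that of *Dusp5*, 5.55% as that of *Dusp4*, 9.82% as that of *Spred1* and 14.8% as that of *Etv5*. With upper-quartile scaling r was 0.905 for *Spred2*, 0.858 for *Dusp5*, 0.843 for *Dusp4*, 0.774 for *Spred1* and 0.639 for *Etv5*, and it was 0.01 for *Spry4*, -0.38 for *Spry2*, -0.48 for *Spry1* and -0.48 for *Etv4*. The groups of 4 and 3 papillomas were too small for a relation within each.

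**Figure D4:**
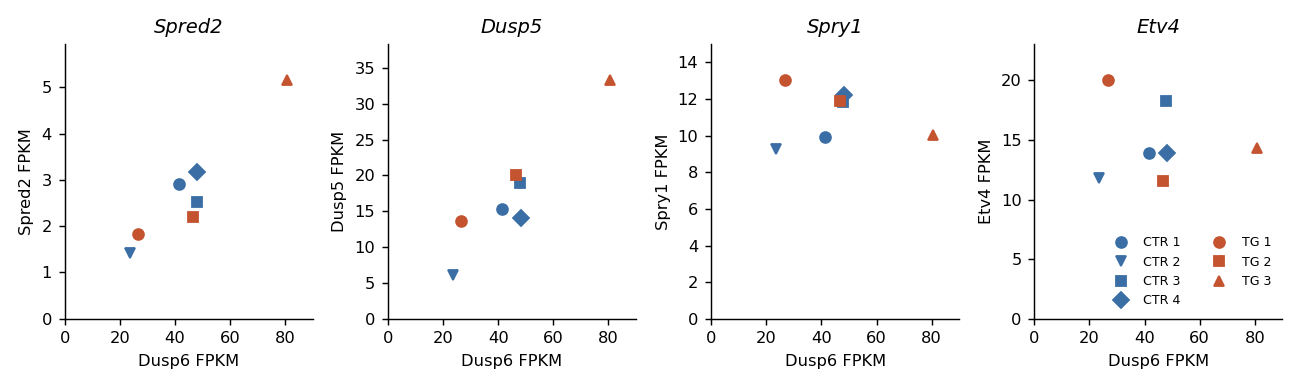
FPKM of *Spred2*, *Dusp5*, *Spry1* and *Etv4* against FPKM of *Dusp6* in each papilloma (blue CTR, red TG). *Spred2* and *Dusp5* rise from CTR 2 at the lower left to TG 3 at the upper right (r = 0.933 and 0.899 on the log2(FPKM + 0.5) scale), and *Spry1* and *Etv4* show no such order (r = -0.02 and -0.07 on that scale).

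The promoters of *Dusp6*, of *Spred2*, the member with the highest r to *Dusp6*, and of the steady *Spry1* are shown for comparison. Relations between other pairs of members were not computed. They are the 250 bases before the RefSeq start, plus strand, GRCm38.p6, at chr10:99262981-99263230, chr11:19924192-19924441 and chr3:37639697-37639946, with capitals marking AGGAAG, a short ETS-type motif, or its reverse complement CTTCCT.
Dusp6: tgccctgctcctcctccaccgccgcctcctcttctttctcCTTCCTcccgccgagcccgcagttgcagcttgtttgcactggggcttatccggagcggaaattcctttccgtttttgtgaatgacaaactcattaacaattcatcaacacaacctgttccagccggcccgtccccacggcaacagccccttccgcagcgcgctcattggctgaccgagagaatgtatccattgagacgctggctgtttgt
Spred2: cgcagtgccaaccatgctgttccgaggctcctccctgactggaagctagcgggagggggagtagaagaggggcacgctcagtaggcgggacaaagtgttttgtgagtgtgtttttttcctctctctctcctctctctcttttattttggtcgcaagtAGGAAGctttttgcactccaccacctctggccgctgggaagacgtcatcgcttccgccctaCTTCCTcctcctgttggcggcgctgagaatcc
Spry1: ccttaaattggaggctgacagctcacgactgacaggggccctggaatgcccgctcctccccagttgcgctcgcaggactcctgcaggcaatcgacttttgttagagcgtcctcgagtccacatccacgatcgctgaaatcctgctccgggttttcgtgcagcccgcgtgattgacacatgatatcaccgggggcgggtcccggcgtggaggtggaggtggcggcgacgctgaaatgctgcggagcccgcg
RefSeq windows of 300 bases, 250 before and 50 after a start, were given for 7 of the 10 members, in 8 windows. AGGAAG on either strand, a motif added after the values had been seen, was in 4 of 8 windows (*Dusp5*, *Dusp6*, *Spred2* and 1 of the windows of *Etv5*), against 35.4% of 32851 windows of all genes. Its first base was at position -210 from the start in *Dusp6* and at -93 and -32 in *Spred2*. The ETS motif CCGGAAG, the AP-1 motif TGACTCA and the CRE motif TGACGTCA, searched on both strands, were in 0 of 8 windows, against 8.86%, 5.20% and 1.79% of all windows. AGGAAG cannot share a site with CCGGAAG on the same strand, since the base before GGAAG differs. A match is a description of the letters only.

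The tested genes nearest in profile to the mean of the 9 tested members were *Dnajc3*, *Fam38a*, *Osbpl5*, *Srp54b* and *Plxnb2*, with root mean square differences of 0.04 to 0.08 on the centred log2 scale over 7 papillomas. Those nearest to *Dusp6* were *Sema5a* (0.13), *Epha2* (0.13), *Gm5595* (0.13), *Gtf3c1* (0.14) and *Rnf169* (0.14). *Epha2*, a receptor gene that ERK signaling induces, was 36.3, 22.1, 46.8 and 39.9 FPKM in CTR 1 to CTR 4 and 23.9, 33.5 and 67.7 FPKM in TG 1 to TG 3. The nearest member to *Dusp6* was *Spred2* (0.20), and the farthest was *Dusp4* (0.73), which varied over a wider range.

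The rest of the pathway was described from 7 lists of 77 genes, of which 67 passed the filter. limma called 0 of 67 after adjustment. Before adjustment, with p under 0.05, 10 were higher in TG and 0 lower, the groups were apart with TG higher for 9 and with TG lower for 0, and 53 differences were positive. Without *Fgf1*, which passed the filter only through its TG values, 9 of 66 were higher before adjustment, 8 had groups apart with TG higher and 52 were positive. Over all tested genes, 4.86% were higher and 1.96% lower before adjustment, 4.93% had groups apart with TG higher and 2.23% with TG lower, and 60.0% were positive. TG 3 was the highest papilloma for 32 of the 67 (47.8%) and CTR 2 the lowest for 45 (67.2%), against 41.1% and 30.2% of all tested genes. With upper-quartile scaling these were 20 (29.9%) and 25 (37.3%), against 26.9% and 16.03%.

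Of 7 other MAP kinase phosphatase genes, 1 was higher in TG at an unadjusted p under 0.05, and the median difference was 0.22. This was *Dusp16*, whose product acts mainly on the stress kinases JNK and p38. It was 3.56, 3.08, 3.77 and 4.39 FPKM in CTR 1 to CTR 4 and 4.94, 8.51 and 6.47 FPKM in TG 1 to TG 3. All TG papillomas were above all CTR papillomas (difference 0.74, SE 0.21, adjusted p = 0.589 from limma, exact permutation p = 0.0286). From the pathway lists, genes were named because their groups did not overlap. That choice by itself puts the exact permutation p of such a gene at or near its smallest possible value. The exact p-values of *Dusp16* and of the genes named below for this reason are therefore descriptive and are not read as tests. *Dusp7*, named after its values were seen as the most abundant of the list, was 71.3, 28.9, 58.7 and 65.9 FPKM in CTR 1 to CTR 4 and 60.9, 62.4 and 63.4 FPKM in TG 1 to TG 3, with CTR 2 alone standing low.

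Of the other Sprouty, Spred and PEA3 family genes, 1 of 3 was tested, and *Spry3* was listed at 0 in every papilloma. The tested gene, *Spred3*, was 2.73, 1.12, 3.47 and 5.33 FPKM in CTR 1 to CTR 4 and 5.74, 5.86 and 5.50 FPKM in TG 1 to TG 3. Here the groups did not overlap (difference 0.90, adjusted p = 0.719 from limma, exact permutation p = 0.0571), and CTR 2 was again the lowest. Without CTR 2 the difference was 0.56.

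Among 8 tested feedback inhibitors outside these families, the median difference was 0.29, 8 of 8 differences were positive, and CTR 2 was the lowest papilloma for 8 of 8. *Socs3*, an inhibitor of cytokine receptor signaling, was 6.70, 6.36, 11.2 and 12.5 FPKM in CTR 1 to CTR 4 and 14.2, 15.1 and 18.9 FPKM in TG 1 to TG 3. It was the only one of these with groups apart (difference 0.82, adjusted p = 0.653 from limma, exact permutation p = 0.0571).

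For the cascade itself, from Ras to ERK, the median difference over 20 tested genes was 0.11, with 14 positive. *Araf* was 14.6, 15.8, 15.9 and 15.5 FPKM in CTR 1 to CTR 4 and 17.3, 17.0 and 18.0 FPKM in TG 1 to TG 3, a separation of small size (difference 0.17, adjusted p = 0.861 from limma, exact permutation p = 0.0286). The scaffold gene *Ksr1* was 0.723, 0.415, 0.525 and 0.616 FPKM in CTR 1 to CTR 4 and 1.24, 1.32 and 1.04 FPKM in TG 1 to TG 3 (difference 0.67, adjusted p = 0.664 from limma, exact permutation p = 0.0286). *Hras*, the usual target of DMBA mutation, listed as *Hras1* and named after its values were seen, was 49.1, 32.0, 65.3 and 50.4 FPKM in CTR 1 to CTR 4 and 53.2, 35.6 and 41.0 FPKM in TG 1 to TG 3, with overlapping groups.

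Over 16 tested ERK target genes the median difference was 0.08, and 9 were positive. The groups were apart for *Elk1*, itself a factor that ERK phosphorylates, which was 1.16, 0.962, 1.29 and 1.12 FPKM in CTR 1 to CTR 4 and 1.51, 1.77 and 1.74 FPKM in TG 1 to TG 3 (difference 0.41, adjusted p = 0.760 from limma, exact permutation p = 0.0286). The immediate early genes, named after their values were seen, did not share a sign, with differences of -0.01 for *Fos*, -0.31 for *Egr1*, 0.80 for *Egr2*, 0.75 for *Egr3* and -0.06 for *Ier2*. *Egr2* was the 1 gene of this list with an unadjusted p under 0.05 (0.0225, adjusted p = 0.687 from limma). *Ccnd1*, the cyclin D1 gene and also named after its values were seen, was 65.3, 47.8, 123 and 109 FPKM in CTR 1 to CTR 4 and 53.0, 43.2 and 145 FPKM in TG 1 to TG 3. TG 3 was the highest papilloma, and TG 2, CTR 2 and TG 1 were the 3 lowest, as they were for *Dusp4*.

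The ligands that feed the pathway had the largest median of the 7 lists after the single *Spred3*, 0.62 over 8 tested genes, and all 8 differences were positive, 4 of them at an unadjusted p under 0.05 and 0 after adjustment by limma, against 60.0% positive and 4.86% higher at that threshold over all tested genes. *Ereg*, which encodes the EGFR ligand epiregulin, was 8.83, 8.45, 13.3 and 14.0 FPKM in CTR 1 to CTR 4 and 14.2, 25.4 and 22.5 FPKM in TG 1 to TG 3 (difference 0.86, adjusted p = 0.631 from limma, exact permutation p = 0.0286). *Fgf1* was 0.125, 0.287, 0.225 and 0.388 FPKM in CTR 1 to CTR 4 and 0.604, 1.61 and 0.741 FPKM in TG 1 to TG 3. It passed the filter only through its TG values (mean 0.256 FPKM in CTR and 0.985 FPKM in TG), so its test is not read. Without it, 7 of 7 tested ligand genes had a positive difference and 3 had an unadjusted p under 0.05, with a median difference of 0.52. *Hbegf*, the most abundant ligand gene and named after its values were seen, was 23.6 FPKM in CTR 2 and 60.5 to 83.6 FPKM in the other 6 papillomas.

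Among 7 tested receptor genes the median difference was 0.46, and 6 were positive. *Egfr* was 8.86, 6.23, 8.03 and 9.40 FPKM in CTR 1 to CTR 4 and 9.91, 11.8 and 17.8 FPKM in TG 1 to TG 3. The lowest TG papilloma was just above the highest CTR papilloma (difference 0.64, SE 0.23, adjusted p = 0.687 from limma, exact permutation p = 0.0286), and without TG 3 the difference was 0.41.

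**Figure D5:**
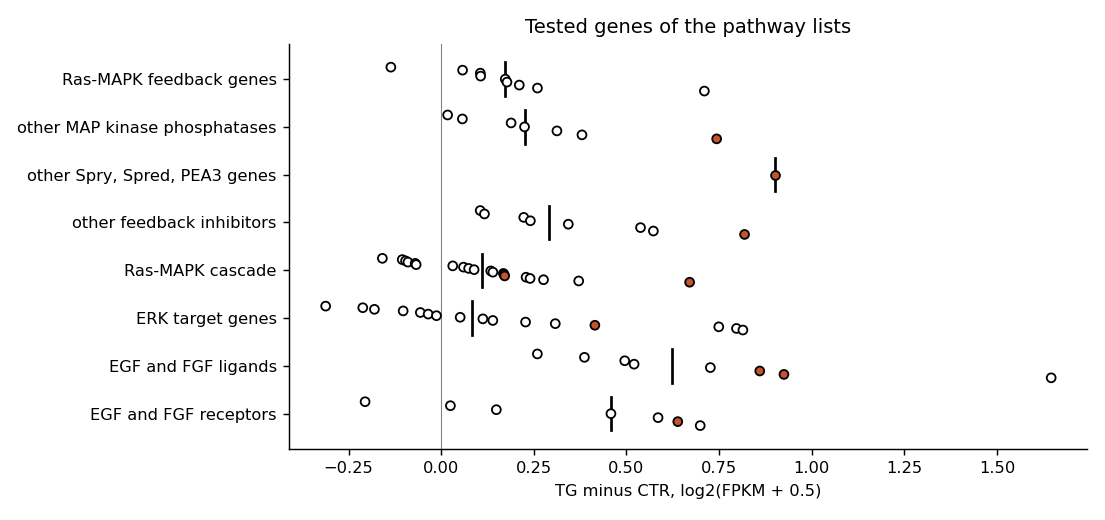
Difference in log2(FPKM + 0.5), TG minus CTR, for each tested gene of the feedback genes and of the 7 pathway lists. Vertical bars are list medians, filled points are genes whose TG values all lie above the CTR values, and the feedback genes hold 0 filled points while the ligands hold 2, *Fgf1* among them.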

How the data were processed

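PolyA+ RNA from papillomas of 4 CTR and 3 TG mice was sequenced by the authors as stranded libraries of single reads. Per the submitters' processing notes, TopHat2 (2.0.4), with Bowtie (0.12.7) beneath it, placed the reads on mm10, and SAMtools (0.1.16) was among the tools. The authors deposited FPKM values for genes from Cufflinks 1.3.0, run on each papilloma separately and with no further scaling between papillomas. These values carry an interval, from which implied reads were computed, and such intervals cover counting error only. Groups and replicate numbers came from the sample labels.

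Entries of a symbol were summed, and 162 symbols with a failed estimate in any papilloma were left out. limma 3.58.1 (R 4.3.3, trended moderation) was fitted to log2(FPKM + 0.5) for 12299 genes that averaged 0.5 FPKM or more, with Benjamini-Hochberg adjustment over all of them, after the script was tested on simulated data. Fold changes of low genes are understated on this scale. Single genes were compared by exact permutation over 35 splits (two-sided), and relations by exact permutation of 7 papillomas. Python 3.11.15 with numpy 2.4.6, pandas 2.3.3 and scipy 1.17.1 was used for the rest. The 19 alternatives changed the pseudocount, the filter, the scaling, the limma settings, the entry of a symbol, the status filter, the replicate block and the papillomas included. From the pathway lists, genes with non-overlapping groups were named, and others are marked as chosen later. The low exact p-values of genes named for non-overlapping groups follow from that choice. Members and lists were chosen with earlier results of these data known. Coordinates were written 1-based. Cuffdiff, which works from alignments, was not run. 1 gene of the cascade list is not reported here by name.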

Additional observations from a re-analysis of the deposited data

Results flagged for a closer look

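*Etv5* in CTR 2 stood apart from the other CTR papillomas. It was 2.31 FPKM, and the next lowest CTR papilloma was 3.82 FPKM, so that the gap made up 0.894 of the range of the 4 CTR values, above Dixon's 95% critical value for 4 samples. The 10 members were tested in this way in the CTR group, and chance flags about 1 in 20 such groups. The same papilloma was the lowest CTR papilloma for 8 of the other 9 members, by gaps that did not pass this value.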

How the results depend on the processing

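Over 19 alternatives, 0 of 173 values of single members reached an adjusted p under 0.05 in limma (lowest 0.290), 2 reached an unadjusted p under 0.05 and 15 turned sign. *Dusp5*, *Spry1* and *Etv5* stayed positive in all of them (0.38 to 1.01, 0.02 to 0.21 and 0.05 to 0.27). Sample quality weights were 0.272 for TG 3, 0.562 for TG 1, 0.569 for CTR 2 and 3.11 for TG 2, so the TG side rested mostly on TG 2. With these weights limma called 49 genes higher and 36 lower (1161 and 1248 at an unadjusted p under 0.05). They turned *Dusp4* to -0.95, *Spred2* to -0.20, *Etv4* to -0.21 and *Spry2* to 0.045. Upper-quartile scaling gave 418 genes lower at an unadjusted p under 0.05 and *Etv4* at -0.0055, quantile normalization 551 and -0.018, and no filter 954 genes higher. The cause was not tested. Leaving out each papilloma in turn gave 0 to 9 genes called higher and 0 to 8 lower (most without TG 3), 364 to 824 and 121 to 522 at an unadjusted p under 0.05, and 0 to 1 member in each direction. The ranges of the difference were -1.02 to 0.73 for *Dusp4*, -0.13 to 0.66 for *Dusp6*, -0.20 to 0.53 for *Spred1*, -0.22 to 0.42 for *Spred2*, -0.15 to 0.24 for *Etv4* and -0.027 to 0.28 for *Spry4*, which entered only 2 of these fits. The signs turned without TG 3 (*Dusp4*, *Dusp6*, *Spred1*, *Spred2*), without CTR 2 (*Dusp4*, *Spred2*, *Etv4*, *Spry4*) and without TG 1 (*Etv4*). Same-numbered papillomas of the groups did not deviate together (mean correlation -0.10, against 0.03 for different numbers). The replicate block called 0 genes, with 505 higher and 170 lower at an unadjusted p under 0.05, and changed no member's call (*Dusp5* 0.76, *Dusp4* 0.28). With 3 TG papillomas, differences inside the printed intervals could not be resolved.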
